A study of Homo sapiens with 6 samples.

Results

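The genes described here drive the cell division cycle. They were the 36 genes of a list fixed by symbol: 11 that copy DNA or make its building blocks, 5 that regulate entry into S phase and 20 that act mainly in G2 and mitosis. All 36 were found by symbol among the 60675 gene identifiers of the deposited tables, each with 1 identifier, and all 36 passed the filter on low counts. The RNA came from OCI-AML2, an established human acute myeloid leukaemia (AML) cell line, and had been precipitated with J2, an antibody that binds double-stranded RNA. The libraries fall into 2 groups of 3 biological replicates: cells with an shRNA against SUPV3L1 (SUV3) and cells with an shRNA against PNPT1 (PNPase). SUPV3L1 encodes the RNA helicase, and PNPT1 the exoribonuclease, of the mitochondrial RNA degradation complex. Both groups therefore carry a knockdown, and no library of control cells and none of RNA before precipitation was analysed here. Every difference below is SUPV3L1 knockdown over PNPT1 knockdown, and a level is that of precipitated RNA, in which less transcript and less binding to the antibody cannot be told apart. The titles carry a number for each sample that no label explains, and whether 1 shRNA was used throughout a group is not known.

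A dividing cell switches on 2 waves of genes. Before and during S phase, E2F transcription factors, released from the retinoblastoma protein, activate the genes for cyclin E, for the MCM helicase and its loaders, and for the enzymes of nucleotide synthesis. In G2 and mitosis a later set, held down earlier by the DREAM complex at a promoter element called the CHR (cell cycle genes homology region), supplies cyclin B, CDK1, the mitotic kinases and the spindle checkpoint. Withdrawal from division is part of normal myeloid differentiation, which the title of the study names as one of its subjects.

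Promoters of members of both waves are shown, and whether their motifs bear on the levels below was not tested. RefSeq promoter sequences on GRCh38.p14, from 250 bases before to 50 bases after a transcription start, were at hand for 28 of the 36 genes. Capitals mark 3 motifs on either strand, so that their reverse complements are in capitals too. They are the E2F-type letters, written TTCCCGC in one form and TTGGCGC in the other, the CHR, written TTTGAA, and the CCAAT box. The other E2F form and a reversed CCAAT box can share letters, but do not in the windows shown. MCM3 and PCNA stand for the DNA replication genes, RRM1 for the member of that group that kept apart from it in PNPT1 knockdown, and CDC20 and CCNB2 for the mitotic genes with the largest differences between the knockdowns for which a promoter was at hand.
MCM3 (chr6:52284693-52284992, minus strand): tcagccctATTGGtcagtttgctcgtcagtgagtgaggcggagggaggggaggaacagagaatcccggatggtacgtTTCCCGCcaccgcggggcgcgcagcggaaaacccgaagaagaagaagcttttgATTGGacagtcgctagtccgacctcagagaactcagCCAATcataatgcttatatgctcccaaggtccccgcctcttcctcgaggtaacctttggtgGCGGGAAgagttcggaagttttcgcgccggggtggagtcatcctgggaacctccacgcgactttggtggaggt
PCNA (chr20:5126573-5126872, minus strand): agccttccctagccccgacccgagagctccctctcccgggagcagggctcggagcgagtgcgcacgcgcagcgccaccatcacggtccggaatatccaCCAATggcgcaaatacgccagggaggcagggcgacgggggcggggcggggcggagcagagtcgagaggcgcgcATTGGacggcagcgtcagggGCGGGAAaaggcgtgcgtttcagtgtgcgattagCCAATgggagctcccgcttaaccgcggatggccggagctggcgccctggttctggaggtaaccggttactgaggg
RRM1 (chr11:4094435-4094734, plus strand): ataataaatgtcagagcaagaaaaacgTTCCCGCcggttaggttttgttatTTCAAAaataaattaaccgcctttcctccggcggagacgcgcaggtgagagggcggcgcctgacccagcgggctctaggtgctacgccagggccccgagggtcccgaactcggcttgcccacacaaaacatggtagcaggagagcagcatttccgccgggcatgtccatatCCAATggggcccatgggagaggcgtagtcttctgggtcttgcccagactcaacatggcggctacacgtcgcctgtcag
CDC20 (chr1:43358731-43359030, plus strand): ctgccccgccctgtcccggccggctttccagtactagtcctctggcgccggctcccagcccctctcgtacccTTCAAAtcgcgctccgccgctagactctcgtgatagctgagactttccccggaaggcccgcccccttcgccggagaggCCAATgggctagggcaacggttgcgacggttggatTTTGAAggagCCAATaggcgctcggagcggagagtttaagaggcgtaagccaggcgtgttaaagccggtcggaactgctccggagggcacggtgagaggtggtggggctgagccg
CCNB2 (chr15:59104896-59105195, plus strand): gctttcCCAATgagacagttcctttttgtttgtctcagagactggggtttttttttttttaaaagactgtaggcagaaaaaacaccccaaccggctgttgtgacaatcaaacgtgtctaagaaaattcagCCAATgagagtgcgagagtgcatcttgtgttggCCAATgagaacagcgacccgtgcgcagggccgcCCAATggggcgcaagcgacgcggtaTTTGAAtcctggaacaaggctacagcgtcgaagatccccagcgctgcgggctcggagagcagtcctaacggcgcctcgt

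The E2F-type letters stood in 8 of the 9 DNA replication promoters, in 2 of 3 promoters of S phase regulators and in 2 of 16 mitotic promoters, against 10.96% of all 27305 genes with a promoter. The CHR letters stood in 1 of 9 DNA replication promoters, that of RRM1, and in 10 of 16 mitotic promoters, against 18.2% of all. CCAAT was present in 7 of 9 and in 14 of 16, against 39.7% of all. A gene with several start sites was counted once if any of its windows held the motif. These matches describe letters only.

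The 36 genes held 20270 to 38185 counts in the SUPV3L1 knockdown libraries and 13692 to 32681 counts in the PNPT1 knockdown libraries, 0.216% to 0.336% of all counts assigned to genes. Assigned counts were 9378264 to 11361371 per library in SUPV3L1 knockdown and 5852090 to 10464630 in PNPT1 knockdown. PNPT1 knockdown replicate 3 stood apart, with the fewest counts, the highest share of alignments that were not unique (80.1%, against 65.7% to 71.6% in the other libraries) and a TMM scaling factor of 0.669, where the others had 0.988 to 1.21. TMM rescales each library so that most genes agree, and levels below are CPM, counts scaled to library size, on that scale unless stated otherwise. Each targeted gene had the lower mean where it was knocked down: SUPV3L1 was at 12.2, 12.3 and 9.42 CPM in SUPV3L1 knockdown, against 11.5, 18.2 and 25.8 CPM in PNPT1 knockdown, and PNPT1 was at 36.3, 27.6 and 21.4 CPM in SUPV3L1 knockdown, against 7.66, 18.9 and 17.1 CPM in PNPT1 knockdown (edgeR adjusted p = 0.898 for both). The groups overlapped for SUPV3L1 and did not for PNPT1. Of 12 markers of AML cells, SPI1, CD33, PTPRC, CEBPA and FLT3 were above 20 CPM in every library, CD34 had 0 counts in all 6 libraries, and KIT was below 0.5 CPM. Markers of erythroid cells and of epithelial cells and fibroblasts summed to at most 1.10 CPM in any library.

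None of the 36 genes passed the test between the knockdowns. The quasi-likelihood test of edgeR, adjusted by Benjamini-Hochberg over 13275 genes, called 0 members, where it called 0% of all genes tested. At an unadjusted p under 0.05 edgeR gave 1 member, TTK, against 4.09% of all genes tested. TTK was lower in SUPV3L1 knockdown, as 2.39% of all genes were at that p, and 0 members were higher, against 1.7% of all. DESeq2 called 0 members, against 0.107% of all the genes for which it gave an adjusted p. The groups overlapped in every member (0 of 36 without overlap), against 8.56% of all genes tested (3.94% lower and 4.62% higher in SUPV3L1 knockdown). Libraries of the same knockdown differed widely, and not in the same way for replication and mitotic genes.

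**Figure D1:**
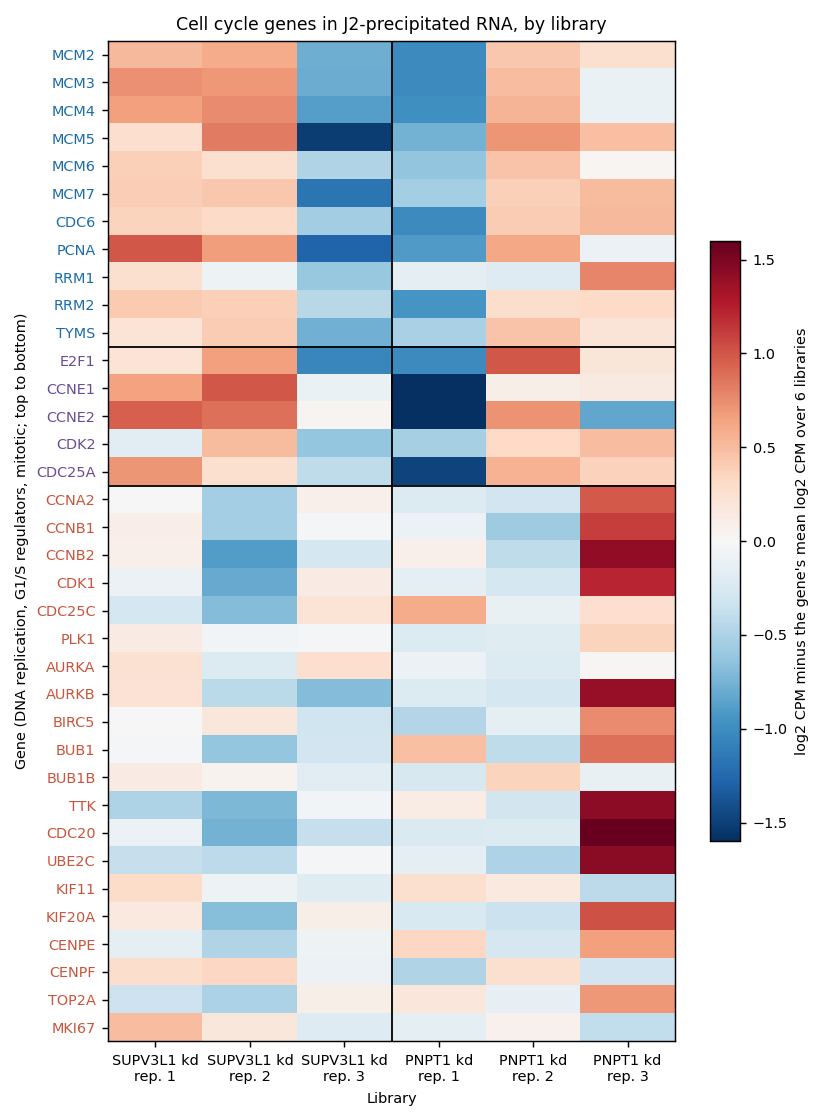
Each row is 1 of the 36 genes and each column 1 library (kd: knockdown, rep.: replicate). Colour gives log2 CPM minus the mean log2 CPM of that gene over the 6 libraries. The DNA replication genes and S phase regulators (top) are mostly blue in SUPV3L1 knockdown replicate 3 and in PNPT1 knockdown replicate 1, while many mitotic genes (bottom) are red in PNPT1 knockdown replicate 3.

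MCM2 to MCM7 encode the 6 subunits of the replicative helicase that unwinds DNA ahead of the fork. MCM3 (ENSG00000112118, chromosome 6, 52264009 to 52284881 on the minus strand) was at 176, 170 and 60.7 CPM in SUPV3L1 knockdown replicates 1, 2 and 3 and at 52.3, 149 and 98.0 CPM in PNPT1 knockdown replicates 1, 2 and 3. In SUPV3L1 knockdown replicate 3 was the low one, in PNPT1 knockdown replicate 1, and the groups overlapped. The log2 fold change of MCM3 was 0.44 ± 0.48 (SE, 3 libraries per group; edgeR adjusted p = 0.905). MCM4, another subunit of the ring, was at 197, 210 and 67.8 CPM in SUPV3L1 knockdown, against 63.4, 183 and 116 CPM in PNPT1 knockdown. Both MCM3 and MCM4 thus had 1 library in each group far below the rest, at 0.346-fold and 0.344-fold for SUPV3L1 knockdown replicate 3 over replicate 1 and 0.350-fold and 0.347-fold for PNPT1 knockdown replicate 1 over replicate 2.

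For the other MCM genes too, replicate 3 was the lowest of the SUPV3L1 knockdown libraries and replicate 1 the lowest of the PNPT1 knockdown libraries. MCM5 (chromosome 22) was at 42.1, 62.5 and 12.2 CPM in SUPV3L1 knockdown, against 20.7, 57.1 and 48.9 CPM in PNPT1 knockdown, a 5.11-fold range over the 6 libraries and the widest of the MCM genes. MCM6 (chromosome 2) had the narrowest of them, 2.12-fold, at 123, 113 and 67.8 CPM in SUPV3L1 knockdown, against 61.3, 130 and 97.0 CPM in PNPT1 knockdown. MCM2 averaged 71.3 ± 31.2 CPM in SUPV3L1 knockdown, against 61.7 ± 27.8 CPM in PNPT1 knockdown, and MCM7, which also holds the miRNA genes MIR25, MIR93 and MIR106B, averaged 76.0 ± 37.5 and 83.7 ± 28.9 CPM (SD, n = 3 each). The log2 fold changes of the 6 MCM genes between the knockdowns ran from -0.14 to 0.44, each smaller than its standard error. The MCM genes differed more between libraries of one knockdown than between the knockdowns.

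PCNA, the sliding clamp that holds DNA polymerases on the template, showed the widest drop of the members from SUPV3L1 knockdown replicate 1 to replicate 3. PCNA (ENSG00000132646, chromosome 20, 5114953 to 5126626 on the minus strand) was at 85.8, 68.6 and 17.7 CPM in SUPV3L1 knockdown, against 23.0, 66.2 and 40.4 CPM in PNPT1 knockdown, and SUPV3L1 knockdown replicate 3 was at 0.206-fold of replicate 1. CDC6, which loads the helicase onto origins, was at 23.2, 22.5 and 12.3 CPM in SUPV3L1 knockdown, against 8.96, 24.0 and 26.1 CPM in PNPT1 knockdown. Its log2 fold change was -0.02 ± 0.45 (SE). TYMS, thymidylate synthase, was at 58.7, 66.8 and 29.5 CPM in SUPV3L1 knockdown, against 35.0, 69.2 and 58.3 CPM in PNPT1 knockdown. TYMS overlaps the opposite-strand genes TYMSOS and ENOSF1, and since the strand setting of the counting is not given, reads of the partners cannot be told apart. The same holds for MCM2, MCM7, CDK2, CDC25A, CCNA2, CCNB2, CDC25C, PLK1, KIF11, KIF20A and CENPF, which also overlap genes of the opposite strand.

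The 2 subunits of ribonucleotide reductase, which makes deoxyribonucleotides, fell alike over the SUPV3L1 knockdown libraries but did not follow each other in PNPT1 knockdown. RRM2, the small subunit, whose level is known to follow S phase, was at 119, 116 and 65.6 CPM in SUPV3L1 knockdown, against 46.2, 108 and 111 CPM in PNPT1 knockdown. RRM1, the large subunit (ENSG00000167325, chromosome 11, 4094707 to 4138876 on the plus strand), was at 75.6, 60.2 and 41.9 CPM in SUPV3L1 knockdown, against 57.4, 55.0 and 110 CPM in PNPT1 knockdown. RRM1 was the only DNA replication member that was not lower in PNPT1 knockdown replicate 1 than in replicate 2, at 1.04-fold. Its log2 fold change between the knockdowns was -0.32 ± 0.37 (SE) and came to 0.069 without PNPT1 knockdown replicate 3. An antisense gene, RRM1-AS1, overlaps it.

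In genes that commit a cell to S phase, replicate 3 was again the lowest SUPV3L1 knockdown library and replicate 1 the lowest PNPT1 knockdown library. CCNE1 and CCNE2 encode cyclin E, and CDK2 its kinase. CCNE2 (ENSG00000175305, chromosome 8, 94879770 to 94896678 on the minus strand) was at 17.7, 16.8 and 9.42 CPM in SUPV3L1 knockdown, against 2.69, 15.02 and 5.12 CPM in PNPT1 knockdown, and it had the highest log2 fold change of the 36 genes, 0.92 ± 0.59 (SE; edgeR adjusted p = 0.898). PNPT1 knockdown replicate 2 overlapped the SUPV3L1 knockdown libraries, and the log2 fold change was 1.94 without it and 0.51 without PNPT1 knockdown replicate 1. CCNE1 was at 6.91, 8.77 and 4.11 CPM in SUPV3L1 knockdown, against 1.29, 4.72 and 4.86 CPM in PNPT1 knockdown, a log2 fold change of 0.88 ± 0.60 (SE) that came to 0.46 without PNPT1 knockdown replicate 1. The values of both cyclins rest on few reads, 13 counts of CCNE1 in PNPT1 knockdown replicate 1 and 20 counts of CCNE2 in PNPT1 knockdown replicate 3. CCNE2 overlaps opposite-strand genes, INTS8 among them.

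CDK2 averaged 18.6 ± 7.40 CPM in SUPV3L1 knockdown, against 21.1 ± 7.14 CPM in PNPT1 knockdown (SD, n = 3 each). CDC25A, the phosphatase that activates CDK2, was at 30.0, 22.0 and 13.9 CPM in SUPV3L1 knockdown, against 6.57, 27.0 and 23.8 CPM in PNPT1 knockdown, so that PNPT1 knockdown replicate 1 was at 0.243-fold of replicate 2. E2F1, the transcription factor of the first wave, was at 9.37, 12.6 and 3.90 CPM in SUPV3L1 knockdown, against 3.98, 16.1 and 9.21 CPM in PNPT1 knockdown. Its low libraries were those of the MCM genes.

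For all 16 DNA replication genes and S phase regulators, the lowest of the 6 libraries was SUPV3L1 knockdown replicate 3 (7 genes) or PNPT1 knockdown replicate 1 (9 genes). Over all genes tested, 1 of these 2 libraries was the lowest for 26.9%. The pair of libraries was singled out after the values were seen, so the count is a description. With CPM not rescaled by TMM the count was 15 of 16 (17.2% of all genes tested), and on the deposited FPKM values it was 13 of 16 (15.6% of all), PNPT1 knockdown replicate 3 being the lowest for the remaining genes. All 11 DNA replication genes were lower in SUPV3L1 knockdown replicate 3 than in replicate 1 (49.8% of all genes tested), with a median of 0.407-fold (all genes tested 1.00-fold). In PNPT1 knockdown, 10 of the 11 were lower in replicate 1 than in replicate 2 (51.7% of all genes tested), with a median of 0.373-fold (0.978-fold over all).

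The mitotic genes gave another order of libraries. TTK encodes the checkpoint kinase MPS1, and BUB1 and BUB1B encode further proteins of the spindle checkpoint. CDC20 is the activator of the anaphase-promoting complex that the checkpoint holds back. TTK (ENSG00000112742, chromosome 6, 80003887 to 80042527 on the plus strand) was at 50.5, 43.2 and 68.8 CPM in SUPV3L1 knockdown, against 76.7, 57.8 and 191 CPM in PNPT1 knockdown. Its log2 fold change, -0.999 ± 0.45 (SE), had the smallest p of the members (edgeR unadjusted p = 0.0495, adjusted p = 0.898). CDC20 (ENSG00000117399, chromosome 1, 43358955 to 43363203 on the plus strand) was at 37.3, 23.7 and 31.0 CPM in SUPV3L1 knockdown, against 33.9, 34.1 and 127 CPM in PNPT1 knockdown, a log2 fold change of -1.07 ± 0.51 (SE; edgeR adjusted p = 0.898). For both genes a single library, PNPT1 knockdown replicate 3, was far above the other 5, and without it the log2 fold changes were -0.32 for TTK and -0.16 for CDC20.

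BUB1 was at 71.0, 47.2 and 58.7 CPM in SUPV3L1 knockdown, against 101, 54.7 and 133 CPM in PNPT1 knockdown, high in 2 of the 3 PNPT1 knockdown libraries. Its log2 fold change was -0.70 ± 0.37 (SE) and was -0.41 without PNPT1 knockdown replicate 3. BUB1B, by contrast, was even, at 79.3, 75.2 and 64.1 CPM in SUPV3L1 knockdown, against 60.5, 92.7 and 66.3 CPM in PNPT1 knockdown, a log2 fold change of -0.01 ± 0.30 (SE). It overlaps the readthrough gene BUB1B-PAK6 on the same strand.

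Cyclins and the kinase that starts mitosis followed the same line. CDK1, the mitotic kinase, was at 44.4, 27.0 and 51.6 CPM in SUPV3L1 knockdown, against 42.3, 38.9 and 111 CPM in PNPT1 knockdown. Of its cyclins, CCNB2 (ENSG00000157456, chromosome 15, 59105078 to 59125045 on the plus strand) was at 39.9, 20.3 and 31.1 CPM in SUPV3L1 knockdown, against 40.01, 28.6 and 101 CPM in PNPT1 knockdown, the log2 fold change being -0.88 ± 0.48 (SE) with all libraries and -0.18 once PNPT1 knockdown replicate 3 was left out. CCNB1 averaged 37.8 ± 8.40 CPM in SUPV3L1 knockdown, against 51.9 ± 32.6 CPM in PNPT1 knockdown, and CCNA2, cyclin A2, 69.1 ± 15.15 and 91.6 ± 49.96 CPM (SD, n = 3 each). Without PNPT1 knockdown replicate 3 the log2 fold changes of CDK1, CCNB1 and CCNA2 were 0.01, 0.17 and 0.13, on the other side of 0 from -0.63, -0.45 and -0.40 with all libraries. CDC25C, the phosphatase that activates CDK1, was at 12.1, 9.05 and 17.0 CPM in SUPV3L1 knockdown, against 22.2, 13.5 and 17.7 CPM in PNPT1 knockdown, where replicate 1 was the high one.

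Among the mitotic kinases, AURKA and PLK1 hardly varied and AURKB did. AURKA, which acts at the spindle poles, averaged 42.9 ± 7.70 CPM in SUPV3L1 knockdown, against 37.0 ± 3.15 CPM in PNPT1 knockdown, and PLK1 46.7 ± 3.19 and 46.1 ± 11.05 CPM (SD, n = 3 each). AURKA and PLK1 had the narrowest ranges of the 36 genes, 1.41-fold and 1.497-fold from the lowest to the highest library. AURKB, the kinase of the chromosomal passenger complex, was at 27.9, 17.5 and 14.6 CPM in SUPV3L1 knockdown, against 20.4, 19.5 and 62.2 CPM in PNPT1 knockdown, while its partner in the complex, BIRC5 (survivin), averaged 29.9 ± 5.15 and 33.9 ± 15.7 CPM (SD, n = 3 each). UBE2C, the ubiquitin-conjugating enzyme of the anaphase-promoting complex, was at 21.5, 20.7 and 27.3 CPM in SUPV3L1 knockdown, against 25.2, 19.7 and 75.7 CPM in PNPT1 knockdown.

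Motor and chromosome proteins were divided. KIF20A, a kinesin of cytokinesis, was at 46.2, 25.8 and 44.2 CPM in SUPV3L1 knockdown, against 35.1, 32.7 and 83.7 CPM in PNPT1 knockdown, and CENPE, a kinetochore kinesin, averaged 75.7 ± 10.6 and 108 ± 33.0 CPM (SD, n = 3 each). KIF11, the kinesin that separates the spindle poles, went the other way in that library, at 91.8, 71.0 and 65.4 CPM in SUPV3L1 knockdown, against 89.3, 83.3 and 56.0 CPM in PNPT1 knockdown. TOP2A, the topoisomerase that untangles chromosomes, was at 235, 209 and 315 CPM in SUPV3L1 knockdown, against 337, 270 and 479 CPM in PNPT1 knockdown.

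MKI67, the proliferation marker Ki-67 that coats mitotic chromosomes, and CENPF, a kinetochore protein, stood apart from most mitotic genes. MKI67 was at 590, 478 and 364 CPM in SUPV3L1 knockdown, against 382, 442 and 320 CPM in PNPT1 knockdown, a log2 fold change of 0.32 ± 0.36 (SE; edgeR adjusted p = 0.905). CENPF was at 299, 312 and 233 CPM in SUPV3L1 knockdown, against 177, 296 and 201 CPM in PNPT1 knockdown. MKI67 and CENPF had the highest log2 fold changes of the mitotic genes, and their lowest libraries were both in PNPT1 knockdown, replicate 3 for MKI67 and replicate 1 for CENPF.

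**Figure D2:**
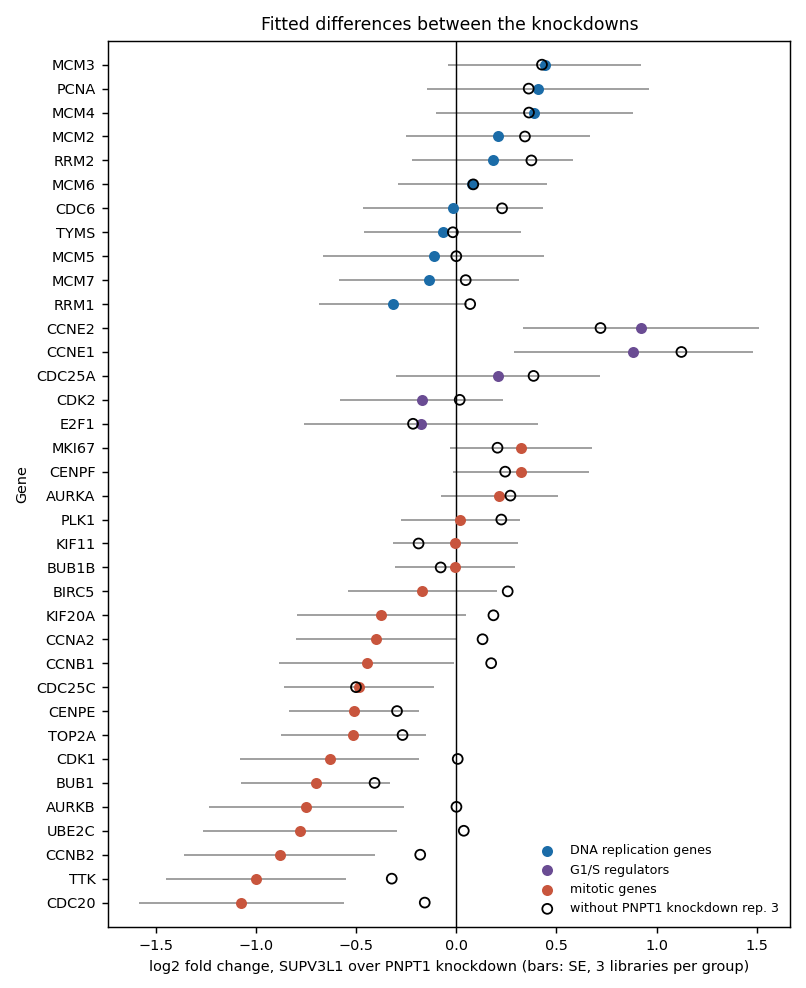
Points give the log2 fold change of each gene, SUPV3L1 over PNPT1 knockdown, with bars of 1 SE (3 libraries per group), and open circles give it without PNPT1 knockdown replicate 3. The 20 mitotic genes run from -1.07 for CDC20 to 0.32, and without that library most of those below 0 move towards 0 or past it.

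By group, 16 of the 20 mitotic genes had a log2 fold change below 0 with a median of -0.47, where 49.3% of all genes tested were below 0 and the median of all was 0.01. The DNA replication genes had 5 of 11 below 0 and a median of 0.08, and the S phase regulators 2 of 5 and a median of 0.21. None of these groups held a gene past the threshold. Without PNPT1 knockdown replicate 3 the median of the mitotic genes was 0.0040. PNPT1 knockdown replicate 3 was the highest library for 14 of the 20 mitotic genes, against 30.6% of all genes tested, and for 9 of 20 with CPM not rescaled by TMM (11.1% of all) and 6 of 20 on FPKM (9.24% of all). SUPV3L1 knockdown replicate 2 was the lowest for 10 of the 20, against 16.2% of all genes tested.

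The level of mitotic genes in PNPT1 knockdown replicate 3 over that in replicate 2 varied with merged exon length, with exceptions. UBE2C, with 1286 bases of merged exons in GENCODE 29, was at 3.84-fold of PNPT1 knockdown replicate 2, CDC20 (2038 bases) at 3.71-fold, and CCNB2 (2801 bases) at 3.52-fold. MKI67 (12807 bases) was at 0.723-fold and CENPF (11690 bases) at 0.678-fold. Against that order, TTK (4579 bases) was at 3.31-fold and BUB1 (6032 bases) at 2.43-fold, while AURKA (2928 bases) was at 1.19-fold and CDC25C (3338 bases) at 1.30-fold. Across the 20 mitotic genes the fold between the libraries had a Spearman rho of -0.67 with exon length, against -0.15 across 12622 genes with a length and a count in every library. The points share the same pair of libraries, and in the DNA replication genes rho was 0.35 (11 genes). This library also had the highest share of alignments that were not unique, and the part of either in the mitotic values was not tested.

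**Figure D3:**
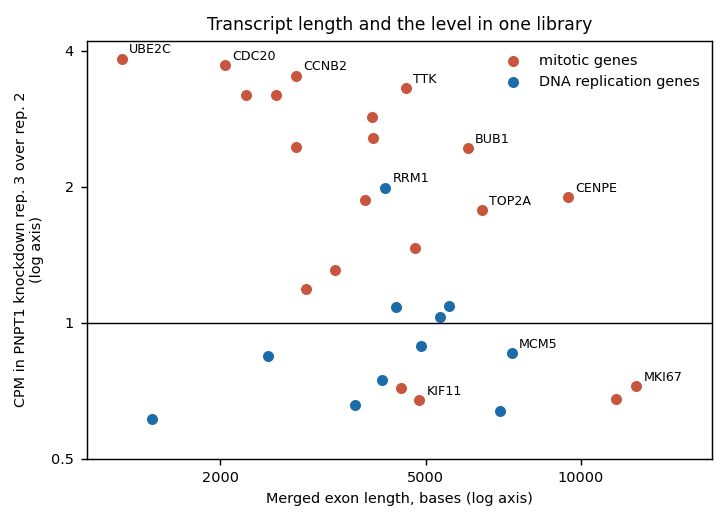
Each point is a mitotic or a DNA replication gene, with merged exon length in bases on the x axis and CPM in PNPT1 knockdown replicate 3 over replicate 2 on the y axis (both log axes). The mitotic gene with the shortest merged exons, UBE2C, is at 3.84-fold and that with the longest, MKI67, at 0.723-fold.

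The replication genes were set against the mitotic genes within each library, a ratio that no scaling between libraries can change. Summed over the 11 DNA replication genes, levels were 1084, 1081 and 444 CPM in SUPV3L1 knockdown and 449, 1020 and 883 CPM in PNPT1 knockdown. Summed over the 20 mitotic genes they were 1975, 1638 and 1707 CPM in SUPV3L1 knockdown and 1757, 1748 and 2551 CPM in PNPT1 knockdown. The ratio of the sums was thus 0.549, 0.660 and 0.260 in SUPV3L1 knockdown replicates 1, 2 and 3 and 0.256, 0.583 and 0.346 in PNPT1 knockdown replicates 1, 2 and 3. Each knockdown had libraries at both ends of the range, and the means, 0.490 ± 0.207 and 0.395 ± 0.169 (SD, n = 3 each), differed by less than the spread within a group.

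Counting error was small beside these differences. Of the counts of the DNA replication and mitotic genes together, the DNA replication genes held 35.4% (95% Wilson interval 35.0% to 35.9%), 39.8% (39.2% to 40.3%) and 20.6% (20.1% to 21.2%) in SUPV3L1 knockdown, and 20.4% (19.8% to 20.9%), 36.8% (36.3% to 37.4%) and 25.7% (25.0% to 26.5%) in PNPT1 knockdown. The intervals cover counting error only. The ratio of summed FPKM, which weighs genes by transcript rather than by read, gave the same low libraries, at 0.835, 0.995 and 0.340 in SUPV3L1 knockdown and 0.360, 0.857 and 0.398 in PNPT1 knockdown. The high summed mitotic level of PNPT1 knockdown replicate 3 on the TMM scale was not seen with CPM not rescaled, where the sums were 2114, 1735 and 1681 in SUPV3L1 knockdown and 2113, 1913 and 1704 in PNPT1 knockdown.

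**Figure D4:**
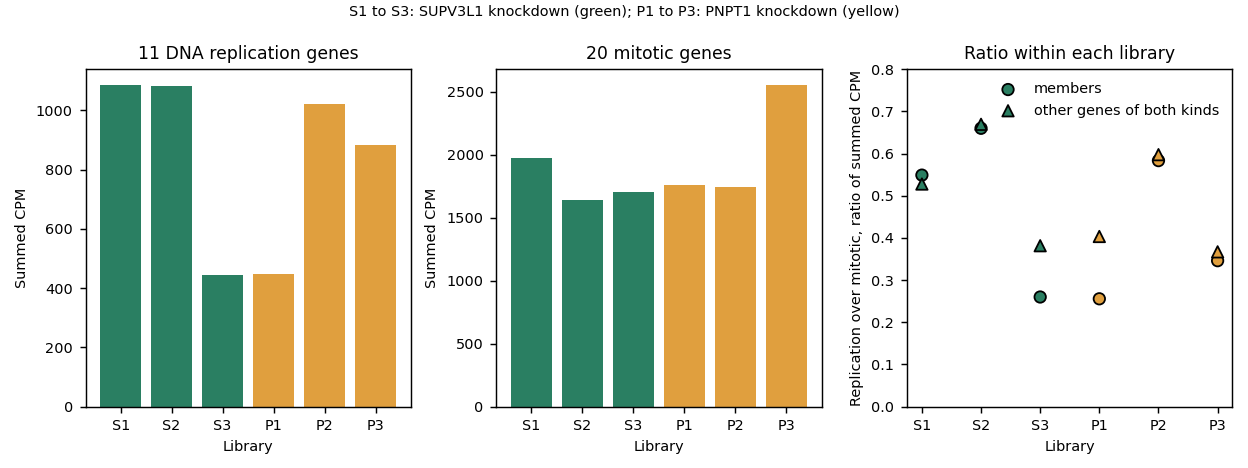
Bars give the summed CPM of the 11 DNA replication genes and of the 20 mitotic genes in each library (S: SUPV3L1 knockdown, P: PNPT1 knockdown, with the replicate number). The right panel gives the ratio of the sums for the members (circles) and for 48 other replication factors over 57 other mitotic genes (triangles). The member ratio is 0.260 in S3, 0.256 in P1 and 0.346 in P3, against 0.549 to 0.660 in S1, S2 and P2. The triangles are at 0.528, 0.670 and 0.382 in S1, S2 and S3 and at 0.403, 0.598 and 0.367 in P1, P2 and P3. The lowest triangle is that of P3.

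Other features of the libraries were read beside this ratio. Alignments that were not unique made up 67.0%, 67.3% and 71.6% of entries in SUPV3L1 knockdown and 68.9%, 65.7% and 80.1% in PNPT1 knockdown, so that the 3 libraries with the lowest ratio had the 3 highest shares. Mitochondrially encoded genes held 34.4%, 33.6% and 42.0% of counts in SUPV3L1 knockdown and 21.7%, 26.6% and 11.3% in PNPT1 knockdown, which does not run with the ratio. LYZ, lysozyme, a marker of mature myeloid cells, was at 1493, 344 and 1331 CPM in SUPV3L1 knockdown, against 36.6, 180 and 144 CPM in PNPT1 knockdown, which does not run with the ratio either. Fewer cells in S phase, less RNA of these genes per cell and less binding to the antibody cannot be told apart in these bulk libraries of precipitated RNA. The part of any of these in the ratio was not tested.

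Further genes of the same pathways were examined as lists written from general knowledge. Of 48 other replication factors, 0 passed the Benjamini-Hochberg adjusted quasi-likelihood test of edgeR (0% of all genes tested). An unadjusted p under 0.05 was seen for 1 of the 48 (4.09% of all), and the median log2 fold change was -0.07. SUPV3L1 knockdown replicate 3 or PNPT1 knockdown replicate 1 was the lowest library for 35 of the 48, against 26.9% of all genes tested. With CPM not rescaled it was so for 25 of the 48 (17.2% of all), and on FPKM for 17 (15.6% of all). On FPKM, PNPT1 knockdown replicate 3 was the lowest for 29 of the 48, or 60.4%, close to the 62.2% of all genes. CDT1, which loads the MCM helicase together with CDC6, had the smallest p of the list. CDT1 was at 39.0, 38.0 and 35.9 CPM in SUPV3L1 knockdown, against 55.9, 76.0 and 99.3 CPM in PNPT1 knockdown, without overlap, a log2 fold change of -1.03 ± 0.31 (SE; edgeR unadjusted p = 0.0075, adjusted p = 0.898). Unlike CDC6 it was even over the SUPV3L1 knockdown libraries. RFC1, of the clamp loader, and RPA3, of the single-strand binding protein RPA, followed with log2 fold changes of -0.59 ± 0.32 and -1.04 ± 0.54 (SE), and that of RPA3 was -0.32 without PNPT1 knockdown replicate 3.

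Of 57 other mitotic genes, 0 passed the same edgeR test (0% of all genes tested). An unadjusted p under 0.05 was seen for 1 of them (4.09% of all). The log2 fold change was below 0 for 46 (49.3% of all), with a median of -0.30. PNPT1 knockdown replicate 3 was the highest library for 37 of the 57 (30.6% of all genes tested). It was so for 16 with CPM not rescaled (11.1% of all) and for 10 on FPKM (9.24% of all). NUF2, a subunit of the kinetochore complex that binds microtubules, was at 26.7, 19.6 and 32.2 CPM in SUPV3L1 knockdown, against 43.9, 31.3 and 101 CPM in PNPT1 knockdown. NEK2, a centrosomal kinase, was at 25.5, 13.7 and 41.1 CPM in SUPV3L1 knockdown, against 40.8, 20.3 and 156 CPM in PNPT1 knockdown. ECT2, which sets the cleavage furrow, averaged 63.5 ± 13.3 and 113 ± 58.1 CPM (SD, n = 3 each). Without PNPT1 knockdown replicate 3 the log2 fold changes of NUF2, NEK2 and ECT2 were -0.53, -0.20 and -0.38, against -1.16, -1.42 and -0.83 with all libraries.

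Drivers and brakes of the G1 phase made up the last list. Of 25 genes for D-type cyclins, CDK4 and CDK6, the RB and E2F families and the CDK inhibitors, 23 passed the filter on low counts. Of these, 0 passed the same edgeR test (0% of all genes tested) and 3 had an unadjusted p under 0.05 (4.09% of all). Their median log2 fold change was 0.03. CDKN2C encodes the CDK4 and CDK6 inhibitor p18. It was at 12.3, 24.4 and 15.9 CPM in SUPV3L1 knockdown, against 27.5, 28.0 and 63.0 CPM in PNPT1 knockdown, without overlap, and its log2 fold change, -1.16 ± 0.43 (SE), came to -0.67 once PNPT1 knockdown replicate 3 was left out. CDKN1B, the CDK inhibitor p27, was at 32.6, 34.8 and 50.7 CPM in SUPV3L1 knockdown, against 73.0, 44.3 and 117 CPM in PNPT1 knockdown, and its log2 fold change, -0.98 ± 0.39 (SE), came to -0.59 without that library. TFDP1, the DNA-binding partner of E2F proteins, was on the other side, at 62.7, 63.8 and 40.8 CPM in SUPV3L1 knockdown, against 19.7, 41.3 and 34.5 CPM in PNPT1 knockdown (log2 fold change 0.81 ± 0.36, SE). Within each knockdown TFDP1 was lowest in the library that was lowest for MCM3.

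Per unit of transcript length, on the deposited FPKM scale, the order of the genes was taken from the mean over all 6 libraries. TOP2A came first, with 30.3 ± 5.92 FPKM in SUPV3L1 knockdown and 38.8 ± 7.39 FPKM in PNPT1 knockdown, followed by MKI67 at 28.95 ± 7.31 and 22.6 ± 9.53 FPKM (SD, n = 3 each). PCNA, at 30.4 ± 19.5 and 21.1 ± 14.0 FPKM, and MCM3, at 29.5 ± 15.02 and 19.1 ± 13.0 FPKM (SD, n = 3 each), came next and did not differ from MKI67 beyond their spread. Within SUPV3L1 knockdown alone PCNA had the highest mean, and the means of PCNA, TOP2A, MCM3 and MKI67 lay within their spread. CCNE1 and CCNE2 were the lowest, at 1.96 ± 0.715 and 2.09 ± 0.678 FPKM in SUPV3L1 knockdown, against 0.861 ± 0.513 and 1.03 ± 1.13 FPKM in PNPT1 knockdown (SD, n = 3 each).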

How the data were processed

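RNA precipitated with the J2 antibody from OCI-AML2 cells was sequenced after directional library preparation, per the labels' protocols, in 3 SUPV3L1 and 3 PNPT1 knockdown libraries grouped by the labelled genotype. Replicates were numbered in accession order. The design text calls them biological replicates without saying what separates them, so p-values measure the spread between these libraries, which may be technical in part.

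The authors deposited read counts per Ensembl gene, with 5 summary lines that hold 84.0% to 92.9% of entries and were left out, and a table of FPKM. HISAT2 2.2.1 and HTSeq are named, with StringTie 2.1.4, SAMtools 1.14 and the build GRCh38, per the submitters' processing notes. For the strand setting, the annotation release and the tool behind the FPKM the sources used here give nothing. Gene positions and exon lengths come from GENCODE 29 on GRCh38.

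Counts were tested with edgeR 4.0.16 (R 4.3.3), quasi-likelihood test, TMM scaling, filter of 10 counts with a total of 15, Benjamini-Hochberg over 13275 genes, threshold 0.05, and standard errors derived from the F statistic. The test was checked on simulated data. DESeq2 1.42.0 and limma 3.58.1 on log2(FPKM + 0.1) and log2(FPKM + 1) were alternatives. Low counts limit CCNE1, CCNE2 and E2F1 most. All 36 members, both targeted genes and, from each of 3 further lists, the 3 genes with the smallest p were named by rule. The members, lists and tests were chosen with earlier results of these data known. AML, lymphoid, erythroid, epithelial and fibroblast markers were read as a check. T and B lymphoid markers summed to at most 3.45 and 5.31 CPM.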

Additional observations from a re-analysis of the deposited data

How the results depend on the processing

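Changes to the processing left 0 members past the threshold under the 14 alternatives run, with 36 tested in each but the filter of 50 counts, which left 34 (without E2F1 and CCNE1): other scaling (DESeq2 size factors in edgeR, library totals alone), mitochondrial genes left out, DESeq2, other filters, limma on FPKM and each library left out. Over all genes DESeq2 called 19 and edgeR without the expression filter 187, and with each library left out edgeR called 0 to 1. The median log2 fold change of the mitotic genes lay between -0.68 and 0.0040 with each library left out, the upper value without PNPT1 knockdown replicate 3, and was -0.30 with library totals alone and -0.12 on log2(FPKM + 0.1). That of the DNA replication genes lay between -0.16 and 0.35, and that of the S phase regulators between -0.21 and 0.56. Of the 36 members, 22 had the other sign under at least 1 alternative that tested them and 14 under none. The difference in the replication to mitotic ratio, SUPV3L1 minus PNPT1 knockdown, was 0.095 and lay between 0.0094 and 0.21 with each library left out. It was 0.093 without TYMS and 0.18 without MKI67, both chosen after seeing the data, and 0.19 on summed FPKM. No paired analysis was possible because the labels give the groups no shared replicate numbers. With 3 libraries per group and this spread, a missed threshold does not show that a gene did not differ. The causes were not tested.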

Other observations

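Some cell cycle genes outside the 36 members had all SUPV3L1 knockdown libraries below all PNPT1 knockdown libraries, where 3.94% of all genes tested did. They were chosen after their values were seen. Among the 48 other replication factors these were ORC6 of the origin recognition complex, CDT1, the primase subunits PRIM1 and PRIM2, and POLE2 of DNA polymerase epsilon, 5 genes with log2 fold changes of -1.03 for CDT1 and of -0.53, -0.48, -0.20 and -0.47 for ORC6, PRIM1, PRIM2 and POLE2. Among the 57 other mitotic genes they were NDC80 of the kinetochore, the condensin subunit NCAPD2, TROAP and the kinase MELK, 4 genes with log2 fold changes of -0.46, -0.34, -0.51 and -0.67. In the G1 list of the report RBL2 (-0.35) and CDKN2C (-1.16) were also lower without overlap, and E2F6 (0.72) was higher without overlap, as 4.62% of all genes tested were. Of these 12 genes CDT1 and CDKN2C had an unadjusted p under 0.05 in edgeR, and none passed after adjustment (adjusted p = 0.898 for both).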
